A study of Mus musculus with 238 samples.

Results

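The genes described here are the 7 enzymes that take citrate to unsaturated long-chain fatty acids, Acly, Acaca, Fasn, Me1, Elovl6, Scd1 and Scd2, and Srebf1, the gene of their transcription factor SREBP-1. They were taken by symbol: all 8 listed genes had a row among the 21076 gene rows of the deposited count table. Bulk RNA was sequenced from C57BL/6JN mice of 19 months in 2 experiments on different animals. In the diet experiment, 4 females were fed ad libitum (AL) and 5 were dietary restricted, a group labelled aDR in brain and DR in liver, which gave 131 libraries from 15 brain regions and 9 from liver. In the plasma experiment, 4 males received PBS and 3 received young mouse plasma (YMP), both by retro-orbital injection, which gave 98 libraries from the same brain regions. No genetic change is labelled in any group. The labels used here give neither the degree and length of the restriction nor the plasma dose, the number of injections or the hour at which tissue was taken. Sex and experiment coincide, so the experiments cannot be told apart from the sexes. A mouse contributed 1 library per region, so n counts mice, and regions of the same mouse are not separate replicates.

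New fatty acids are made in the cytosol from citrate. Acly cleaves citrate to acetyl-CoA, Acaca carboxylates acetyl-CoA to malonyl-CoA in the committed step, and Fasn joins these units to palmitate with reducing power that Me1 helps to supply as NADPH. Elovl6 lengthens palmitate, and the stearoyl-CoA desaturases Scd1 and Scd2 place a double bond in the product. SREBP-1 binds sterol regulatory elements in the promoters of these genes. In liver, feeding and insulin raise the pathway and fasting lowers it; in brain, fatty acids made in place are used for membranes and myelin, and Scd2 is the main desaturase of that tissue.

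In the GENCODE annotation of GRCm38, 4 of the genes lie on chromosome 11: Srebf1 at chr11:60199089-60222581 on the minus strand, Acaca at chr11:84129672-84401651 on the plus strand, Acly at chr11:100476353-100528000 on the minus strand and Fasn at chr11:120805846-120824547 on the minus strand. Scd2 (chr19:44293674-44306864, plus strand) and Scd1 (chr19:44394455-44407879, minus strand) are neighbours on chromosome 19. Elovl6 is at chr3:129532355-129638495 on the plus strand and Me1 at chr9:86581371-86695953 on the minus strand. Counts are sums over whole genes, so exons and isoforms, including the alternative starts of Srebf1, were not resolved. The libraries carry no strand, and Srebf1 shares 109 exonic bases (1.93% of its exons) with Rai1 on the opposite strand.

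RefSeq promoter windows on GRCm38.p6, from 250 bases before to 50 bases after an annotated start, were at hand for 6 of the 8 genes. Those of Fasn, whose product makes the palmitate, and of Elovl6, the gene called across the brain in the diet experiment, are shown 5′ to 3′ on the gene's strand. Capitals mark CCAAT on either strand, the element that binds NF-Y, a factor known to act beside SREBP-1.
Fasn, chr11:120824498-120824797, minus strand: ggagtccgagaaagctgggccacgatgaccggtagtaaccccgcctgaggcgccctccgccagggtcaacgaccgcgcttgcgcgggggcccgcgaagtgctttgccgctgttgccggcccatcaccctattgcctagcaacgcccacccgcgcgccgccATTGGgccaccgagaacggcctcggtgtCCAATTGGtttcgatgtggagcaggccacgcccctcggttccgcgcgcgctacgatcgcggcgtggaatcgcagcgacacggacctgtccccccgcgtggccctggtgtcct
Elovl6, chr3:129532136-129532435, plus strand: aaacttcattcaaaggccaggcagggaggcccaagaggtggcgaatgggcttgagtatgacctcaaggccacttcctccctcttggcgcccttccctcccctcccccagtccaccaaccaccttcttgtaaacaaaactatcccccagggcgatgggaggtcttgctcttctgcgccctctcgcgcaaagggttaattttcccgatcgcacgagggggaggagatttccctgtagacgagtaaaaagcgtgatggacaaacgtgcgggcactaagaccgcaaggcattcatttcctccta
Both strands were searched for TCACNCCAC, a sterol regulatory element that 1.24% of all 32851 promoter windows hold, for the E-box CACGTG (7.15% of windows), for CCAAT (37.4%) and for the GC box GGGCGG (35.7%). The Fasn window held CCAAT at 3 places, the first bases being at -90, -62 and -59 from the start, and the matches at -62 and -59 overlap. The Elovl6 window and the Acaca window held no match to any of the 4 motifs. No window of a listed gene matched TCACNCCAC or CACGTG. A match is a description of these letters only, and no match says nothing about binding outside them.

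Before treatment effects, the levels in untreated tissue were set out, over the AL liver (4 mice) and the AL and PBS brain libraries (6 to 8 mice a region). Levels are CPM, counts scaled to the library total, or, for comparison between genes, CPM per kilobase of exon (RPKM). The 2 desaturases divided between the tissues. Scd1 averaged 10986 CPM in liver and 126 CPM over the 15 brain regions, which is 87.3-fold higher in liver. Scd2 averaged 10.2 CPM in liver and 710.2 CPM in brain, which is 69.4-fold higher in brain. The other genes were higher in liver than the mean of the brain regions, from 2.03-fold for Acly and 3.37-fold for Srebf1 to 5.19-fold for Elovl6 and 7.98-fold for Fasn, although Acly in the medulla (493 ± 115 CPM, SD, n = 8) was at the level of liver (488 ± 328 CPM, SD, n = 4). Per length, Scd1 was the highest of the 8 in liver at 2246 ± 1181 RPKM (SD, n = 4) and Scd2 the lowest at 1.87 ± 0.68 RPKM. In brain the order began with Scd2 (130 RPKM, mean of regions), then Acly (45.6), Scd1 (25.7) and Me1 (23.0), and ended with Acaca (1.65). Exonic windows of 50 bases shared with another gene make some of these levels uncertain: 30.4% of the windows of Acaca and 28.3% of those of Me1 also occur in other annotated transcripts, mostly of Gm5182, Gm7049 and Gm48795, which have no row in the table. For Scd1 and Scd2 the shared windows were 4.56% and 3.97%, in part with each other.

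**Figure D1:**
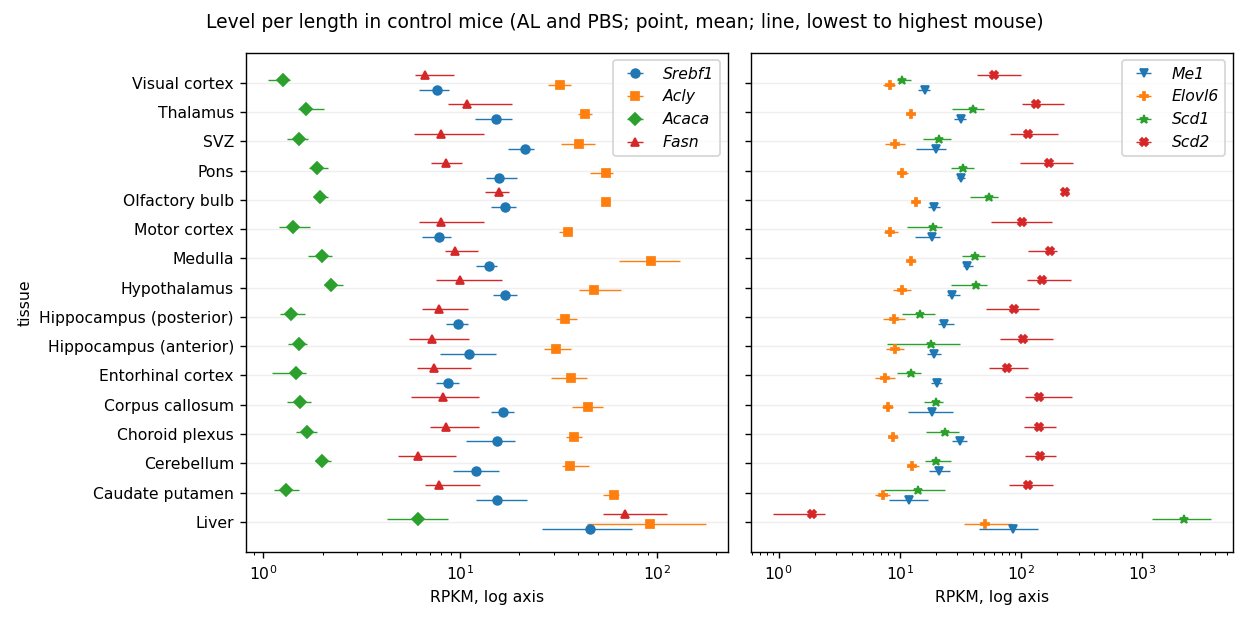
RPKM on a log axis of each gene in control mice, by tissue; points are means over 4 AL livers or 6 to 8 AL and PBS brain libraries, and lines run from the lowest to the highest mouse. Scd1 and Scd2 change places between liver (2246 against 1.87 RPKM) and brain (25.7 against 130 RPKM).

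Within the brain, all 8 genes differed between regions by an edgeR F test that kept the mouse as a block, as did 99.6% of all genes tested. The olfactory bulb had the highest mean of Fasn (173 ± 18 CPM, SD, n = 8), Scd1 (266 ± 43), Scd2 (1272 ± 71) and Elovl6 (88.4 ± 4.9). The visual cortex had the lowest of Scd1 (51.2 ± 4.8 CPM, n = 7), Scd2, Srebf1 and Acaca, so Scd1 spanned 5.20-fold between these regions and Scd2 3.85-fold. Acly and Me1 were highest in the medulla, at 493 and 138 CPM, and spanned 3.04-fold and 3.02-fold. Srebf1 was highest in the SVZ (120 ± 12 CPM, n = 8) and spanned 2.81-fold, while Acaca spanned least, 1.75-fold, from the hypothalamus (37.7 CPM) to the visual cortex (21.5 CPM). Most neighbours in these orders did not differ beyond their spread: the gap was smaller than the larger of the 2 SDs for 13 of 14 neighbouring pairs of Fasn and Scd2, 12 of 14 for Acaca, Scd1 and Acly, 11 of 14 for Srebf1 and Elovl6, and 10 of 14 for Me1.

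Over the 15 regional means of log2 CPM, the closest pairs among the 8 genes were Scd1 with Scd2 (Pearson r = 0.86), Acaca with Scd1 (0.83) and Scd1 with Elovl6 (0.80), and the loosest was Srebf1 with Me1 (0.20). Srebf1 followed the markers of ependyma (r = 0.76), of oligodendrocytes, the myelin-forming cells (0.73), and of choroid plexus epithelium (0.67), and ran against those of neurons (-0.77). Elovl6 followed the endothelial markers (r = 0.80). Markers of hepatocytes, a liver cell, reached 0.73 with Acaca, 0.72 with Scd1 and 0.70 with Elovl6 over these brain regions, so an r of this size names no cell type. Among all genes the most alike were Arhgap22 for Fasn (r = 0.95), Accs for Acaca (0.94), Lbh for Scd1 (0.92), Chrnb4 for Scd2 (0.92), Ttc12 for Srebf1 (0.95), Rabl3 for Acly (0.91), Stard9 for Elovl6 (0.92) and Mief2 for Me1 (0.92). The second in each order were Cntnap2 (0.89), Prkaa1 (0.91), Kcnj10 (0.92), Scarb2 (0.92), Nthl1 (0.94), Fis1 (0.88), Jam2 (0.92) and Aen (0.91), and none of these 16 genes was one of the 8. These values describe 15 points that share animals and libraries, and no test was made of them.

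The liver was taken to check the restriction, and the lipogenic genes were lower there on average in the DR mice, without a call for any of them. All 8 log2 changes were below 0, with a median of -0.77 against 0.018 for all genes tested. With edgeR's quasi-likelihood test and Benjamini-Hochberg adjustment, 0 of the 8 genes passed an adjusted p of 0.05, as 0.220% of all 11815 genes did. An unadjusted p under 0.05 was found for 3 of the 8 and for 1074 of the 11815. DESeq2 also called 0 of the 8. Values in the liver are CPM of TMM-scaled library sizes.

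The desaturase Scd1 showed the widest differences. It measured 12773, 6416, 5759 and 18549 CPM in AL mice 63, 66, 68 and 69, and 10658, 1177, 2322, 2745 and 679 CPM in DR mice 61, 62, 64, 65 and 67. The last 4 DR mice lay below every AL mouse, and DR mouse 61 lay between the AL mice. The log2 change was -1.63 (SE 0.70, adjusted p = 0.498). Scd2, the minor desaturase of this tissue, was between 4.62 and 13.5 CPM in AL and between 4.06 and 11.5 CPM in DR mice, and the groups overlapped (log2 change -0.67, SE 0.36, adjusted p = 0.643).

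For elongation and synthesis, mouse 61 again stood apart from the other 4 DR mice. Elovl6, the elongase, measured 214, 288, 240.2 and 553 CPM in the AL mice and 271, 148, 198, 176 and 87.8 CPM in the DR mice, in the same order of animals. Of the DR mice, 4 lay below all AL mice and mouse 61 did not (log2 change -0.88, SE 0.34, adjusted p = 0.429). Fasn, the synthase, measured 574, 571, 585 and 1256 CPM in AL and 785, 330.0, 393, 448 and 244 CPM in DR mice. The 3 lower AL mice lay between 571 and 585 CPM, 4 DR mice lay below them, and mouse 61 lay above them (log2 change -0.76, SE 0.35, adjusted p = 0.548). 

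The genes that feed the synthase with carbon and NADPH overlapped more. Me1, the malic enzyme, measured 343, 260.5, 168 and 540.3 CPM in AL and 329.5, 101, 130.0, 200.1 and 153 CPM in DR mice, with 3 DR mice below the lowest AL mouse (log2 change -0.85, SE 0.38, adjusted p = 0.533). Acly measured 510.0, 220.0, 253 and 955 CPM in AL and 621, 123, 137, 285 and 240.0 CPM in DR mice. Only mice 62 and 64 lay below the AL range (log2 change -0.79, SE 0.53, adjusted p = 0.758). Acaca, the committed step, ranged from 71.4 to 149.9 CPM in AL and from 47.6 to 102 CPM in DR mice (log2 change -0.29, SE 0.26, adjusted p = 0.850).

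Srebf1 itself showed the smallest difference. It measured 285, 166, 144 and 429 CPM in AL and 397, 163, 198, 222 and 217 CPM in DR mice, and no DR mouse lay below the AL range. The log2 change was -0.10 (SE 0.34, adjusted p = 0.980) and turned to 0.013 without DR mouse 62 and to 0.27 without AL mouse 69. SREBP-1 is activated by cleavage of its protein, which RNA counts do not measure.

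A single mouse in each group stood at the top for the whole set. DR mouse 61 was the highest of its group for 8 of 8 genes, and AL mouse 69 the highest of its group for 8 of 8. Both mice were singled out after their values had been seen. Without mouse 61 the log2 changes were larger for Scd1 (-2.65, adjusted p = 0.0603), Acly (-1.31), Me1 (-1.17), Elovl6 (-1.09) and Fasn (-1.08, adjusted p = 0.179), and still 0 of 8 genes passed, while the number of genes called among all tested went from 26 to 55. Without AL mouse 69 the changes were smaller: -1.24 for Scd1, -0.49 for Elovl6 and for Me1, -0.39 for Fasn and -0.22 for Acly. For these genes the edgeR adjusted p then ran from 0.899 (Scd1) to 0.999 (Acly). Of the 8 genes 0 passed there too, and 12 were called among all tested.

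**Figure D2:**
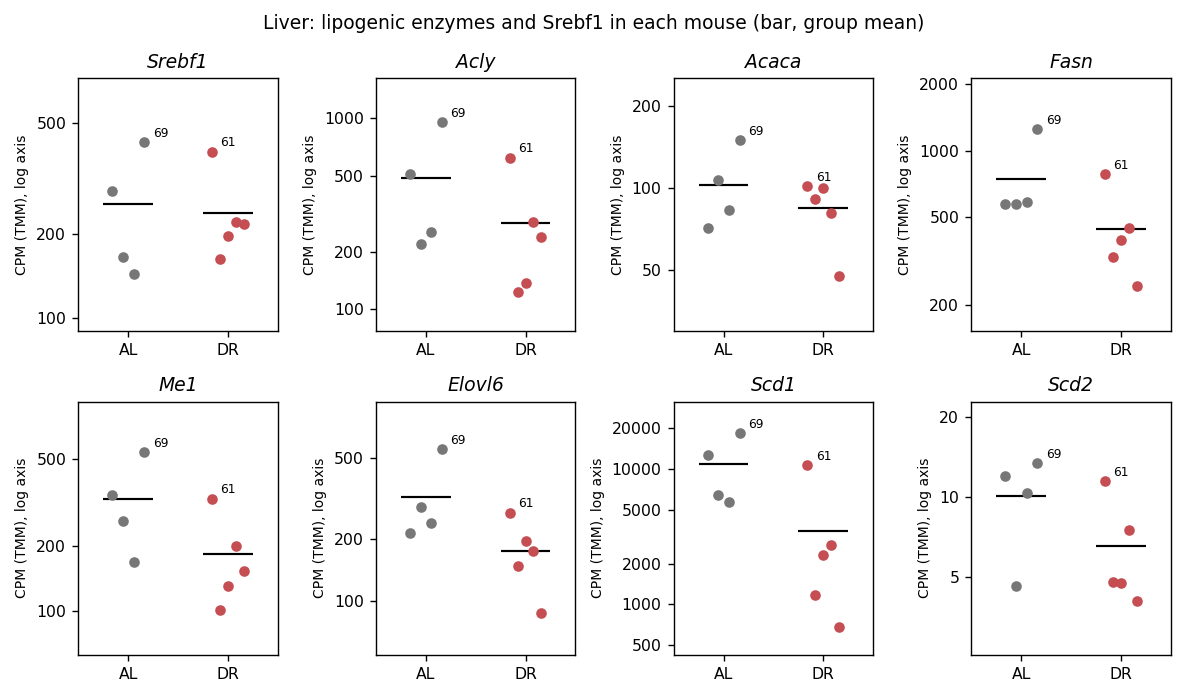
TMM-scaled CPM in liver on a log axis, 1 point per mouse (4 AL, 5 DR), with group means as bars and mice 61 and 69 numbered. For Scd1, Elovl6 and Fasn, 4 of 5 DR mice lie below all AL mice, and mouse 61 lies among or above AL mice.

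Of 76 other genes of the pathway, 67 were tested in liver. EdgeR's quasi-likelihood test called 0 of them, where it called 0.220% of all genes, and DESeq2 called 3 (Lpin1, Lpin2 and Pnpla3), where it called 1.90% of all genes. An unadjusted p under 0.05 with edgeR was found for 1074 of all 11815 genes. Of the 67, 7 were lower and 5 higher at that limit. The 5 with the smallest p were Lpin1 and Lpin2, phosphatidate phosphatases of triglyceride synthesis, Pnpla3, a lipid droplet protein that SREBP-1 is known to induce, Cyp4a14, a fatty acid hydroxylase, and Cpt1a, which carries fatty acids into mitochondria. They were picked by p, so groups that lie apart for them are no separate support. Lpin1 measured 132, 141, 137 and 191 CPM in AL and 315, 268, 297, 258 and 419 CPM in DR mice. These groups did not overlap, and mouse 61 lay within the DR range (log2 change 1.05, SE 0.19, edgeR adjusted p = 0.0672, DESeq2 adjusted p = 2.44e-05). Pnpla3 measured 18.3 to 33.6 CPM in AL mice and 16.8, 4.36, 8.74, 7.79 and 4.18 CPM in DR mice, again with no overlap and with mouse 61 nearest the AL group (log2 change -1.63, SE 0.37, edgeR adjusted p = 0.113, DESeq2 adjusted p = 0.0042). Cpt1a was 149.6 to 209.9 CPM in AL and 231 to 561 CPM in DR mice (log2 change 0.85, SE 0.27, edgeR adjusted p = 0.285, DESeq2 adjusted p = 0.0945), Cyp4a14 45.1 to 214 and 255 to 400.1 CPM (1.16, SE 0.36, edgeR adjusted p = 0.282, DESeq2 adjusted p = 0.070), and Lpin2 159.7 to 258 and 256 to 449 CPM (0.81, SE 0.22, edgeR adjusted p = 0.196, DESeq2 adjusted p = 0.023). Of 15 other fatty acid synthesis genes 10 had log2 changes below 0 (median -0.18), among them Pgd and G6pdx, which also make NADPH, at -0.62 and -0.95, and Acss2 at -0.96. Of 16 fatty acid oxidation genes 16 were above 0, with a median of 0.19.

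Marker genes of other cells were followed in the same libraries. Hepatocyte markers summed to between 71881 and 84908 CPM in AL and between 79135 and 100810 CPM in DR livers. Adipocyte markers summed to at most 2.67 CPM, and 0 of these 6 passed the filter on low counts. The 5 blood genes summed to 97.6 to 216 CPM in AL and 62.8 to 96.4 CPM in DR livers, which did not overlap; 4 of the 5 were lower at an unadjusted p under 0.05, and 0 were called. Their part in the lipogenic values was not tested. In these bulk samples, fewer cells of a type and less RNA per cell cannot be told apart.

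In single brain regions of the diet experiment, 0 of 120 tests (8 genes in 15 regions) passed with edgeR. The share of all genes that passed in the same fits was 0 in the entorhinal cortex, anterior and posterior hippocampus, hypothalamus, pons and thalamus, 0.00707% in the choroid plexus, 0.00714% in the medulla, 0.0146% in the caudate putamen, 0.0212% in the SVZ, 0.0215% in the corpus callosum, 0.0524% in the cerebellum, 0.202% in the visual cortex, 0.220% in the olfactory bulb and 0.251% in the motor cortex. At an unadjusted p under 0.05, 11.7% of the 120 tests stood out, against 6.05% of the tests of all genes. Srebf1 was higher in aDR mice in 14 of 15 regions (median log2 change 0.19), the cerebellum (-0.15) being the exception. Elovl6 was lower in 14 of 15 regions (median -0.13; 0.067 in the cerebellum) and Scd2 in 14 of 15 (median -0.17; 0.041 in the motor cortex). The other 5 genes were lower in 10 or 11 regions, with medians between -0.086 and -0.038. These regions come from the same 9 mice, so the counts of regions are not counts of replicates.

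The region with the smallest p of each gene shows the size of these differences. Groups that lie apart there are no separate support, since the regions were picked by p. How many of all genes had groups apart in them is not given here. Scd2 in the cerebellum measured 659, 777, 933 and 741 CPM in AL and 574, 615, 580.4, 532 and 534 CPM in aDR mice. All aDR mice lay below all AL mice (log2 change -0.46, SE 0.09, edgeR adjusted p = 0.0901, DESeq2 adjusted p = 2.64e-04, where DESeq2 called 1.28% of all genes there). Srebf1 in the motor cortex measured 41.3, 44.7, 35.9 and 45.2 CPM in AL and 56.6, 51.5, 42.5, 52.8 and 52.8 CPM in aDR mice. Only aDR mouse 64 lay in the AL range (log2 change 0.29, SE 0.09, edgeR adjusted p = 0.233). Each mouse was left out in turn, and without mouse 64 the edgeR adjusted p was 0.0383. Leaving out the only overlapping mouse sets the groups apart by construction, so this lower p is no separate support.

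Elovl6 in the choroid plexus measured 55.2, 54.2, 55.5 and 61.7 CPM in AL and 50.6, 47.4, 47.4, 49.3 and 48.2 CPM in aDR mice, without overlap (log2 change -0.22, SE 0.06, adjusted p = 1). Me1 in the posterior hippocampus was 81.0 to 111 CPM in AL and 69.8 to 78.2 CPM in aDR mice, also without overlap (log2 change -0.31, SE 0.10, adjusted p = 1). The smallest unadjusted p of Fasn was 0.0445 (cerebellum), of Acaca 0.130 (visual cortex), of Acly 0.131 (medulla) and of Scd1 0.158 (posterior hippocampus). The test of whether the diet effect differed between regions called 0 of the 8 genes and 0.0128% of all genes. That fit held no mouse term, so libraries of the same mouse counted as separate.

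**Figure D3:**
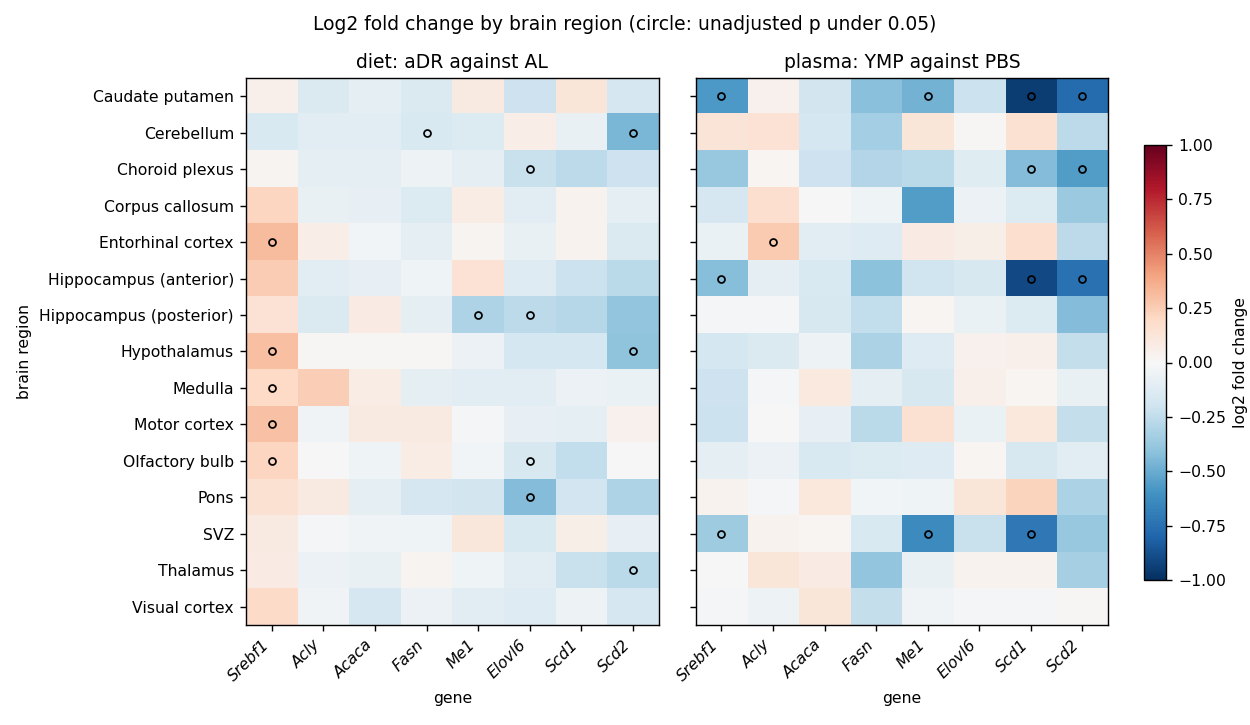
Log2 fold change of each gene in each brain region, treated against control, for the diet (left) and plasma (right) experiments; blue is lower and red higher in treated mice, and circles mark an unadjusted p under 0.05. Srebf1 is red in 14 of 15 regions for diet, and for plasma the deepest blue is Scd1 in the caudate putamen (-0.95) and anterior hippocampus (-0.90).

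With 1 value per mouse over its brain regions, restricted mice had less Elovl6 RNA. Each value is the mouse term of a fit of log2 CPM on region and mouse, compared with limma. Elovl6 was 5.92, 6.00, 5.93 and 5.91 in AL mice 63, 66, 68 and 69 and 5.75, 5.87, 5.72, 5.78 and 5.74 in aDR mice 61, 62, 64, 65 and 67. All aDR mice lay below all AL mice, and Elovl6 fell by 0.16 on the log2 scale (SE 0.03, adjusted p = 0.0406). It was the only 1 of the 8 genes called, where 1.75% of all 15616 genes were called. The call rests on a narrow margin: leaving out 1 mouse at a time gave adjusted p from 0.0266 to 0.134, and only the fit without aDR mouse 62 kept it.

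Srebf1 differed by a similar amount in the other direction. It was 6.12, 6.18, 6.09 and 6.17 in AL and 6.41, 6.23, 6.29, 6.25 and 6.28 in aDR mice, again without overlap, and did not pass (log2 change 0.15, SE 0.04, adjusted p = 0.0682). Scd2 was 9.16, 9.32, 9.15 and 9.35 in AL and 9.16, 9.10, 9.10, 9.06 and 8.84 in aDR mice (log2 change -0.19, SE 0.07, adjusted p = 0.165), with mouse 61 inside the AL range. With the libraries fitted singly and the mouse as a replicate block, 3 of the 8 genes and 9.45% of all genes were called; the 3 were Elovl6, Srebf1 (0.15, adjusted p = 0.00974) and Scd2 (-0.20, adjusted p = 0.0016). 

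The remaining genes lay closer together. Scd1 was 6.62 to 6.83 in AL mice and 6.85, 6.66, 6.63, 6.75 and 6.15 in aDR mice, where mouse 67 stood low (log2 change -0.13, SE 0.12, adjusted p = 0.623). The log2 changes of Fasn (-0.060, SE 0.049), Acaca (-0.051, SE 0.037), Me1 (-0.062, SE 0.052) and Acly (-0.033, SE 0.028) were each under 2 SE, with adjusted p between 0.527 and 0.614. Mouse 61, the DR mouse with high liver values, was also the highest aDR mouse for 6 of 8 genes in brain. The AL mice did not keep their liver order. AL mouse 69, highest of its group for 8 of 8 genes in liver, was highest for 2 and lowest for 2 in brain. AL mouse 66 was highest for 0 in liver and for 6 in brain. The test of whether the diet effect differed between liver and brain of the same mice called 0 of the 8 genes and 0.0705% of all genes. The liver effect minus the brain effect was -1.99 for Scd1 (SE 0.61, adjusted p = 0.330), -0.70 for Elovl6 (SE 0.35, adjusted p = 0.687) and -0.18 for Srebf1 (SE 0.33, adjusted p = 0.969).

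Of 73 other pathway genes tested across the brain in the diet experiment, 2 were called, where 1.75% of all genes were. Both were higher in aDR mice: Dgat2, which makes triglycerides (0.21, SE 0.04, adjusted p = 0.0214), and Acaa2, a thiolase of mitochondrial fatty acid oxidation (0.16, SE 0.03, adjusted p = 0.0439). Dgat2 was 6.49 to 6.61 in AL and 6.68 to 6.85 in aDR mice, and Acaa2 5.22 to 5.34 and 5.40 to 5.51, without overlap in either case. The next were Agpat1 (-0.10, adjusted p = 0.114), Elovl5, another elongase (-0.11, adjusted p = 0.136), and Nr1h3, the liver X receptor that induces Srebf1 (-0.23, adjusted p = 0.152). Among the fixed lists, 9 of 18 regulators were higher and 9 lower, and 13 of 17 oxidation genes were higher (median 0.029, against -0.006 for all genes).

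Markers of other cell types moved in the same mice. Across the brain, 2 of 4 endothelial markers and 1 of 5 microglial markers were called lower in aDR mice, with endothelial log2 changes between -0.48 and 0.020, and 0 of 6 oligodendrocyte markers had an unadjusted p under 0.05. The 5 blood genes had log2 changes from 0.36 to 1.13, with 0 called. Their part in the values of Elovl6 and Srebf1 was not tested.

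**Figure D4:**
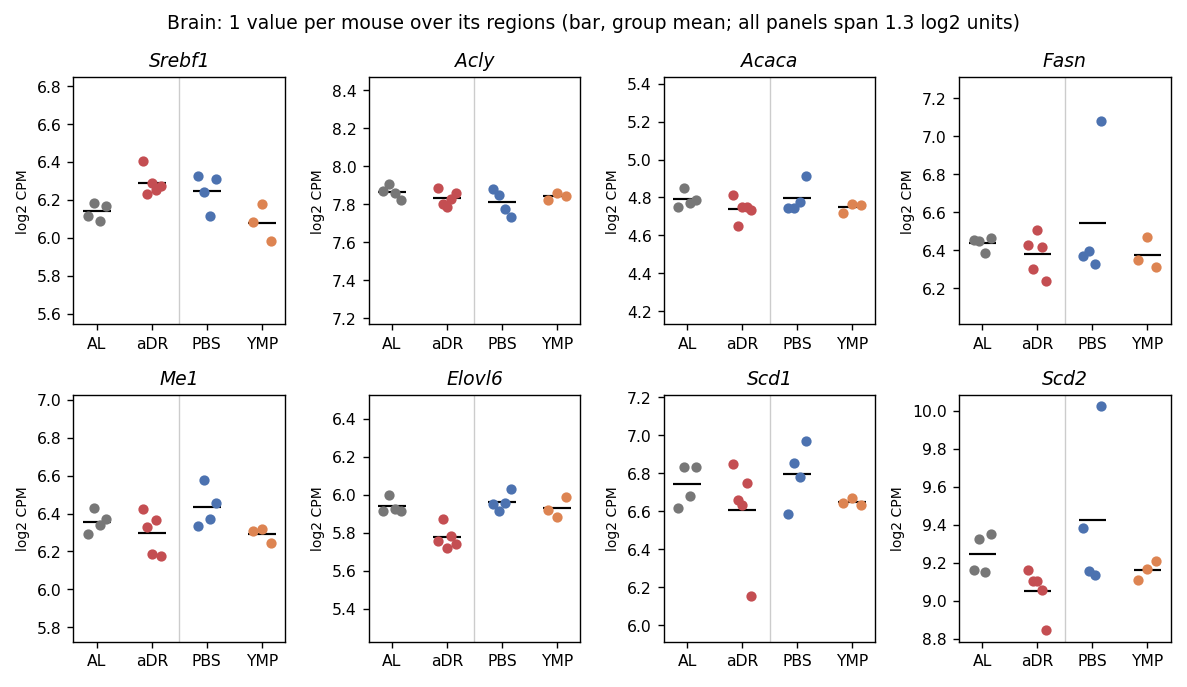
Log2 CPM of each gene, 1 value per mouse over its brain regions, for AL (4), aDR (5), PBS (4) and YMP (3) mice, with group means as bars and the same span on each axis. AL and aDR mice do not overlap for Elovl6 and Srebf1, and 1 PBS mouse stands far above the others for Fasn (7.08) and Scd2 (10.02).

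In single regions of the plasma experiment, 0 of 120 tests passed with edgeR. At an unadjusted p under 0.05 were 13 (10.8%), against 6.22% of the tests of all genes. The widest differences were those of the desaturases, Scd1 and Scd2 in the caudate putamen and anterior hippocampus and Scd1 in the SVZ, each with a lower mean in YMP mice. These regions, and those named below, were picked by their values, so groups that lie apart there are no separate support. How many of all genes had groups apart in them is not given here. The share of all genes that passed was 0.184% in the corpus callosum, 0.00738% in the cerebellum and 0 in the other 13 regions. In the caudate putamen Scd1 measured 64.9, 118, 68.0 and 60.7 CPM in PBS mice 72, 76, 80 and 84 and 48.3, 38.5 and 34.1 CPM in YMP mice 73, 77 and 81. All YMP mice lay below all PBS mice (log2 change -0.95, SE 0.24, edgeR adjusted p = 0.474, DESeq2 adjusted p = 0.031, where DESeq2 called 0.599% of all genes there). In the SVZ Scd1 measured 94.2, 127, 88.2 and 116 CPM in PBS and 73.3, 61.0 and 60.2 CPM in YMP mice, also without overlap (log2 change -0.72, SE 0.15, edgeR adjusted p = 0.113, DESeq2 adjusted p = 0.00546, where DESeq2 called 3.57% of all genes there). In the anterior hippocampus it measured 129, 63.9, 91.9 and 153 CPM in PBS and 44.5, 58.6 and 74.1 CPM in YMP mice, with YMP mouse 81 above PBS mouse 76 (log2 change -0.90, SE 0.29, adjusted p = 0.683). Scd1 also had an unadjusted p under 0.05 in the choroid plexus (log2 change -0.44, SE 0.17, adjusted p = 0.9996). Over the 15 regions it was lower in 8 and higher in 7, with a median of -0.020.

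Other genes were lower in these regions too. Me1 in the SVZ measured 92.9, 91.7, 68.7 and 73.1 CPM in PBS and 60.0, 43.9 and 55.0 CPM in YMP mice, without overlap (log2 change -0.64, SE 0.16, edgeR adjusted p = 0.154, DESeq2 adjusted p = 0.0147). Srebf1 there measured 134, 128, 118 and 127 CPM in PBS and 109, 106 and 82.4 CPM in YMP mice, without overlap (log2 change -0.36, SE 0.12, adjusted p = 0.252). Scd2 in the caudate putamen measured 579.9, 611, 666 and 1018 CPM in PBS and 430.0, 348 and 484 CPM in YMP mice, again apart (log2 change -0.77, SE 0.21, edgeR adjusted p = 0.474, DESeq2 adjusted p = 0.0469). In the anterior hippocampus Scd2 measured 846, 481, 472 and 987 CPM in PBS and 304, 438 and 505 CPM in YMP mice, where YMP mouse 81 lay above PBS mice 76 and 80 (log2 change -0.75, SE 0.30, adjusted p = 0.683).

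For Fasn, Elovl6, Acaca and Acly, the region of smallest p was as follows. Fasn in the anterior hippocampus measured 80.6, 76.5, 62.1 and 119.8 CPM in PBS and 59.4, 70.1 and 64.9 CPM in YMP mice, with overlap (log2 change -0.41, SE 0.20, adjusted p = 0.683). Elovl6 in the caudate putamen was 44.2 to 53.9 CPM in PBS and 39.2 to 43.6 CPM in YMP mice, without overlap (log2 change -0.22, SE 0.10, adjusted p = 0.507). Acaca in the cerebellum was 31.1 to 37.9 CPM in 3 PBS mice and 30.1 to 31.9 CPM in YMP mice (log2 change -0.17, SE 0.10, adjusted p = 0.567). Acly was the 1 gene whose smallest p was a higher value, in the entorhinal cortex (0.26, SE 0.11, adjusted p = 0.91).

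Cell markers differed between the groups in the same libraries. Oligodendrocyte markers summed to 15021 to 37194 CPM in PBS and 9600 to 15500 CPM in YMP libraries of the caudate putamen, and to 7921 to 14947 against 6888 to 7744 CPM in the anterior hippocampus. The ranges overlapped in the caudate putamen and also in the SVZ (13509 to 24296 and 6601 to 23840 CPM), but not in the anterior hippocampus. In the SVZ, choroid plexus markers summed to 2786 to 21023 CPM in PBS and 30.2 to 56.0 CPM in YMP libraries. Their part in the Scd1, Me1, Srebf1 and Scd2 values was not tested. The test of whether the plasma effect differed between regions called 0 of the 8 genes and 0.786% of all genes. That fit held no mouse term, so libraries of the same mouse counted as separate. Scd1 had the smallest p of the 8 (adjusted p = 0.106). It passed in the fit that kept the mouse as a replicate block (adjusted p = 0.0258), whose share of all genes called is not given here.

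Across the brain, 0 of the 8 genes passed in YMP mice, as 0 of all 15768 genes did with limma. The number of all genes with an unadjusted p under 0.05 was 1317, and 2 of the 8 were among them. Srebf1 was 6.33, 6.24, 6.12 and 6.31 in PBS mice 72, 76, 80 and 84 and 6.08, 6.18 and 5.98 in YMP mice 73, 77 and 81. Its groups overlapped between PBS mouse 80 and YMP mouse 77 (log2 change -0.17, SE 0.06, adjusted p = 0.552). Me1 was 6.33, 6.58, 6.37 and 6.45 in PBS and 6.31, 6.32 and 6.25 in YMP mice (log2 change -0.14, SE 0.06, adjusted p = 0.580). The changes of Scd1 (-0.15), Elovl6 (-0.034), Acaca (-0.046) and Acly (0.033) were under 2 SE. Without the caudate putamen, anterior hippocampus and SVZ, Scd1 stood at 0.036 and Elovl6 at 0.0045. These regions were picked after their low Scd1 values had been seen, so a rise of Scd1 without them was built in.

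A single control mouse stood apart for Fasn and Scd2, which were lower in YMP mice in 15 and 14 of the 15 regions. PBS mouse 84, singled out after its values had been seen, had a Fasn value of 7.08, where the other PBS mice had 6.37, 6.39 and 6.33 and the YMP mice 6.35, 6.47 and 6.31. Its Scd2 value was 10.02, where the other PBS mice had 9.38, 9.16 and 9.14 and the YMP mice 9.11, 9.17 and 9.21. In single regions, Fasn of mouse 84 lay above every other library of the experiment in 14 of 15 regions, at a median of 1.80 times the mean of the other PBS libraries, with the olfactory bulb (0.899 times) as the exception. Scd2 lay above every other PBS library in 13 of 15 regions, at a median of 1.97 times and at most 2.46 times, in the corpus callosum. The other 6 genes stood nearer to 1: the median was 1.15 times for Scd1, 1.14 for Acaca, 1.07 for Elovl6 and Srebf1, 1.04 for Me1 and 0.95 for Acly. Of all 15768 genes, 0.850% lay further than Scd2 and 1.20% further than Fasn from the other PBS mice. The log2 change of Fasn was -0.17 (SE 0.17, adjusted p = 0.813) with this mouse and 0.0096 without it, and that of Scd2 was -0.26 (SE 0.19, adjusted p = 0.736) with it and -0.066 without it.

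**Figure D5:**
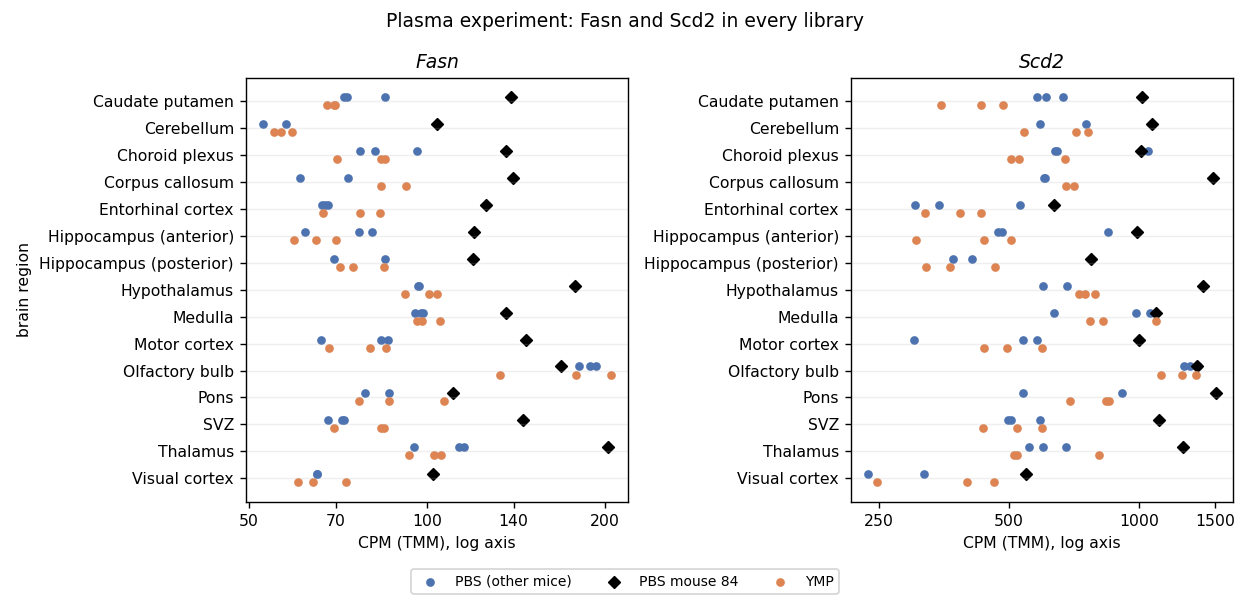
TMM-scaled CPM on a log axis of Fasn (left) and Scd2 (right) in every library of the plasma experiment, by region; diamonds are PBS mouse 84, other points the remaining PBS and the YMP mice. Mouse 84 is the highest of all libraries in 14 of 15 regions for Fasn and in 12 of 15 for Scd2.

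Of 72 other pathway genes, limma called 0 in the plasma experiment across the brain, as it did of all genes. An unadjusted p under 0.05 was found for 1317 of all 15768 genes. Of the 72, 15 were lower and 0 higher at that limit. The 5 with the smallest p were Acadl, an acyl-CoA dehydrogenase of fatty acid oxidation (-0.16, adjusted p = 0.367), Acacb, the mitochondrial acetyl-CoA carboxylase (-0.41, adjusted p = 0.386), Cpt1a (-0.21, adjusted p = 0.402), Elovl7, an elongase (-0.32, adjusted p = 0.528), and Hsd17b12, a reductase of elongation (-0.095, adjusted p = 0.528). Fatty acid oxidation genes made up 9 of the 15, and 16 of the 17 tested on that list had a log2 change below 0 (median -0.14, against -0.004 for all genes). All 7 choroid plexus markers were lower at an unadjusted p under 0.05 in the same fit, by log2 changes of -2.29 to -0.74, with 0 called, and their part in these values was not tested.

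The diet and plasma effects of the 8 genes were then set against each other over the 16 mice, a comparison added after the data had been seen, and one in which sex and experiment cannot be told apart. No gene of the 8 passed, where 0.232% of all 15518 genes did and 1954 had an unadjusted p under 0.05. The diet effect minus the plasma effect was 0.32 for Srebf1 (SE 0.07, adjusted p = 0.0787), which was higher in aDR mice (0.15) and lower in YMP mice (-0.17), each against its own controls. Without PBS mouse 80, the lowest PBS mouse for Srebf1, it was 0.37 with a limma adjusted p of 0.0378. Leaving out the lowest control widens this difference by construction, so the lower p is no separate support. The share of all genes called in that fit is not given here. The diet effect minus the plasma effect was -0.13 for Elovl6 (SE 0.05, adjusted p = 0.325) and between -0.066 and 0.11 for the other 6 genes.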

How the data were processed

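RNA was isolated from homogenised tissue, and unstranded Smart-Seq2 and Nextera XT libraries were made, per the labels' protocols. The values are read counts per gene, whole numbers that the authors deposited as 1 table of 21076 gene rows and 238 libraries. GRCm38, Trim Galore 0.3.7, STAR 2.5.3a and DESeq2 are named, without their roles, per the submitters' processing notes; the counting program and annotation are not given in the sources used here. All per-sample columns were matched to samples by the labels. Library totals ran from 0.606 to 32.4 M counts (median 8.44 M; liver 3.50 to 12.1 M), and 6 libraries held under 2 M. The 357 pairs of libraries of a group all differed by more than sampling noise (chi-square per degree of freedom at least 1.28, median 8.84), so each counted as 1 replicate. Whether mice of a group came from separate litters or cages is not labelled, so p-values measure the spread between these animals.

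Each region was fitted alone with edgeR 4.0.16 (R 4.3.3): filterByExpr at its settings of 10 (count) and 15 (total), TMM, and the quasi-likelihood test, with p-values adjusted over all genes tested and calls at an adjusted p under 0.05. All 8 genes passed the filter in every fit. The SE is the log2 change divided by the root of F. Across the brain, limma 3.58.1 with a trend compared 1 value per mouse (log2 CPM with a prior count of 2, from the deposited counts). Differences between regions were tested with edgeR F tests. The test of levels in control mice kept the mouse as a block, and the main tests of treatment effects by region held no mouse term. Liver minus brain within each mouse was tested with limma. The mouse number marks 1 animal in all its regions: deviations from the group mean correlated at 0.040 within mice and -0.011 between mice (diet), and at 0.072 and -0.029 (plasma). DESeq2 1.42.0, other scaling and filters, leaving out each mouse and a replicate block were alternatives. Leaving out a YMP mouse from the corpus callosum leaves 1 library, which is assumed to vary like the others. The fits were tested on simulated counts.

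The 8 genes, the 76 pathway genes in 5 lists and the 54 markers were chosen with earlier results of these data known. Named in the text are all 8 genes in liver and across the brain, the region of smallest p of each, pathway genes called or, with under 5 called, the 5 of smallest p, and the 2 genes most like each in pattern; others named were chosen after their values were seen.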

Additional observations from a re-analysis of the deposited data

Results flagged for a closer look

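Groups of 4 or 5 mice were searched for a mouse whose distance from its nearest neighbour took up most of the group's range, by Dixon's 95% limits. Of 63 groups, 9 held such a mouse, and chance gives about 1 in 20.

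In liver, AL mouse 69 stood apart for Fasn at 1256 CPM, and DR mouse 61 for Scd1 at 10658 CPM and for Srebf1 at 397 CPM. Over the brain, PBS mouse 84 stood apart for Fasn at 7.08 log2 CPM. AL mouse 68 was low for Fasn at 6.38, and AL mouse 66 was high for Elovl6 at 6.00. In single regions, AL mouse 69 was high for Elovl6 in the choroid plexus at 61.7 CPM. In the posterior hippocampus, AL mouse 68 was high for Me1 at 111 CPM and aDR mouse 64 at 78.2 CPM. The Scd2 value of PBS mouse 84 (10.02) did not pass the limit, since PBS mouse 72 (9.38) lay between it and the others.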

How the results depend on the processing

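The number of the 8 genes called stayed at 0 in liver, for the difference between liver and brain and for the region by diet test, and at 8 for the difference between regions, under every alternative run. In single regions, DESeq2 called 1 gene for diet (Scd2 in the cerebellum) and 4 for plasma (Scd1 and Scd2 in the caudate putamen, Scd1 and Me1 in the SVZ), where edgeR called 0. Leaving out 1 mouse gave 0 to 1 for diet (Srebf1 in the motor cortex without aDR mouse 64) and 0 to 1 for plasma (Me1 in the corpus callosum without PBS mouse 84, at a log2 change of -0.74, and Fasn in the olfactory bulb without YMP mouse 77, at -0.38). The share of all genes called in these fits is not given here. That corpus callosum fit held only PBS mice 76 and 80 and YMP mice 77 and 81. The olfactory bulb fit held only YMP mice 73 and 81 in its treated group, and the library of mouse 73 held 0.606 M counts. Across the brain, the 1 gene called for diet became 0 without the filter on low counts and with limma without the trend, and 0 to 1 when 1 mouse was left out. The number became 3 with the mouse as a replicate block, where 1475 of all 15616 genes were called. It was also 3 with no replicate block, where 2760 of all 15616 genes were called. For plasma, the fit with no replicate block, which treats regions of a mouse as independent, called 4 of the 8. It called 2629 of all 15768 genes, and the main test called 0 of all genes. The region by plasma test called 1 (Scd1) with the mouse as a replicate block. The diet effect minus the plasma effect gave 0 to 1 when 1 mouse was left out (Srebf1 without PBS mouse 80). That mouse was the lowest control for Srebf1, so leaving it out widens the difference by construction. The cause of these changes was not tested. With single mice left out, the log2 change of Srebf1 in liver ran from -0.36 to 0.27 and that of Fasn across the brain for plasma from -0.24 to 0.0096. Without the caudate putamen, anterior hippocampus and SVZ, Scd1 (0.036) and Elovl6 (0.0045) turned from lower to higher for plasma. Those regions were picked after their low Scd1 values had been seen. Of 835 alternative values of single genes, 830 kept their direction. Libraries under 2 M counts include 1 each in the medulla, visual cortex, anterior hippocampus and pons and 2 in the olfactory bulb. Each region was fitted alone and its count was 0, so leaving those regions out could not change the counts for single regions.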

Other observations

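The share of Scd2 against Scd1 in liver was computed from the CPM of both genes. Scd2 came to 0.0936%, 0.0720%, 0.180% and 0.0726% of Scd1 in AL mice 63, 66, 68 and 69. It came to 0.107% in DR mouse 61 and to 0.404%, 0.204%, 0.274% and 0.599% in DR mice 62, 64, 65 and 67. The last 4 mice lay above every AL mouse and mouse 61 within the AL range, as it did for Scd1 itself; no test was made of this share, which was computed after the values of both genes had been seen.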
